A study of Homo sapiens with 4 samples.

Results

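Mitochondrial ribosomal proteins are the nuclear-encoded proteins of the ribosome inside mitochondria. They were taken here as every protein-coding gene whose symbol is MRPL or MRPS followed by a digit, which gave 78 genes of 62710 in the deposited table. Large-subunit proteins make up 51 of them, MRPS18A and MRPS30 included despite their names, and small-subunit proteins make up 26. The last, MRPS36, is now known as a component of the alpha-ketoglutarate dehydrogenase complex and not of the ribosome. It was kept because its symbol meets the rule.

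Poly(A)-captured RNA of 2 human lines established from gastric cancers was sequenced. HGC27 cells and MKN45 cells received 0.3 µM periplocymarin, a plant cardiac glycoside that blocks the Na,K-ATPase, for 24 h. Their comparators received 0.1% DMSO for the same time, and all cultures were grown in RPMI-1640 with fetal bovine serum. With 1 treated and 1 DMSO library per line, differences inside a line carry no replicate check and are given without p-values.

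The mitochondrial ribosome translates the few mRNAs encoded by mitochondrial DNA, all of which specify subunits of the respiratory chain and the ATP synthase. Its proteins are made in the cytosol, imported, and joined to ribosomal RNAs transcribed inside the organelle. Some of them have direct counterparts in bacterial ribosomes, while others are specific to mitochondria. Cells that respire depend on it to renew respiratory complexes.

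Levels are FPKM, reads scaled by the authors for gene length and library size. Differences are periplocymarin minus DMSO of log2(FPKM + 1), a scale on which changes of low genes come out too small. A gene is said to have risen or fallen only where limma's test over both lines, with cell line as a block, gave a Benjamini-Hochberg adjusted p under 0.05. A value after ± is the moderated standard error (n = 2 lines per arm), which draws on 8.59 prior and only 1 residual degree of freedom. The labels give no replicate culture within a line and treatment, so p-values measure the spread between these libraries only. With cell line as a block, the 1 residual degree of freedom reflects how far the treatment differences of the 2 lines disagree. In bulk RNA, fewer cells of a kind and less RNA per cell cannot be told apart.

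Depth, as reads recovered from the steps between FPKM values, was 24807794 for treated HGC27, 26734001 for DMSO HGC27, 27571748 for treated MKN45 and 36436047 for DMSO MKN45. Both lines are labelled as gastric cancer cells. MKN45 held the epithelial markers EPCAM, CDH1, KRT8, KRT18, KRT19 and CLDN4 at 23.7 to 1120 FPKM, whereas in HGC27 all 6 were at or below 0.21 FPKM. Of the mesenchymal markers, VIM stood at 380 FPKM in treated and 406 FPKM in DMSO HGC27. COL3A1 had 349 and 147 FPKM there, COL1A1 83.6 and 37.7 FPKM, and ZEB1 16.6 FPKM in both. FN1 was low, at 2.45 and 2.63 FPKM, and CDH2 nearly absent, at 0 and 0.043 FPKM. Of 5 leukocyte markers, CD68 in MKN45 was highest, at 2.46 FPKM (treated) and 1.07 FPKM (DMSO).

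The sequences around the start sites of 3 members are shown because MRPL32 rose, MRPL24 fell, and MRPL46 shares its promoter region with a second member, MRPS11. They come from RefSeq on GRCh38.p14, run 5′ to 3′ from 250 bases before to 50 bases after the annotated start, and are in lower case. Capitals mark exact matches, on either strand, to 4 short motifs: GCATGCGC (the core of the NRF1 motif), CCGGAAG (the ETS motif, bound by GABP), AAGATGGCG (the YY1 motif) and TATAAA (the TATA box). The ETS and YY1 strings can overlap in the letters AAG. The MRPL32 stretch lies on the plus strand at chr7:42932126-42932425, the MRPL24 stretch on the minus strand at chr1:156741039-156741338, and the MRPL46 stretch on the minus strand at chr15:88467339-88467638.
MRPL32: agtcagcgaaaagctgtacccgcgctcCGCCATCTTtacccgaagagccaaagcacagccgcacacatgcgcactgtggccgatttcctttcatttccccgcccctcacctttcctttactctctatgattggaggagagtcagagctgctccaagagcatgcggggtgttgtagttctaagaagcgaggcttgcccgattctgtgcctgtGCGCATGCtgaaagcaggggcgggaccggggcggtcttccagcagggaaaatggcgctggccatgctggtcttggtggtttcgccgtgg
MRPL24: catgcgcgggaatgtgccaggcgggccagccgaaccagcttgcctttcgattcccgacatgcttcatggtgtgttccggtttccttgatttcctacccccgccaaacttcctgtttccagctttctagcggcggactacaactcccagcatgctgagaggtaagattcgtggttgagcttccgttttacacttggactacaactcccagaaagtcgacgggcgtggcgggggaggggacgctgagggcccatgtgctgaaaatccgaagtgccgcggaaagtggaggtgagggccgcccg
MRPL46: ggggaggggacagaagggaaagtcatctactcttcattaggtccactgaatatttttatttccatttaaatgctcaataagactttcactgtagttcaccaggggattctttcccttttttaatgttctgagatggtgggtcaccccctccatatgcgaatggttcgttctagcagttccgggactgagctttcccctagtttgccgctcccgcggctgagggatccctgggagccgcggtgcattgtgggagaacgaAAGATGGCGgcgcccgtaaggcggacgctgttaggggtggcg

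With positions counted from 0 at the RefSeq start, the MRPL32 stretch held an NRF1 match at -39 and a YY1 match at -223. The MRPL46 stretch held a YY1 match at 8. None of these 4 strings occurred in the MRPL24 stretch, which says only that those letters are not in that window.

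RefSeq promoters were found for 69 of the 78 members. The ETS string was in 29 of these 69 promoters (42.0%), against 10.3% of all 35116 promoters of the same length. For the YY1 string the shares were 13 of 69 (18.8%) and 1.75%, and for the NRF1 string 6 of 69 (8.70%) and 3.05%. TATAAA was in 2 of 69 member promoters (2.90%) and in 11.5% of all promoters. Member promoters thus held the ETS and YY1 strings more often and the TATA string less often than promoters at large, as plain counts. The 35116 promoters were not limited to protein-coding genes, to expressed genes or to 1 per gene. Whether the contrast is particular to the family was not tested. The fitted response was similar with and without the ETS string, with medians of 0.09 for 29 tested members and 0.14 for 39. Tested members with the YY1 string had a median of 0.29 (n = 12) and those without it 0.12 (n = 56). For the NRF1 string the medians were 0.68 (n = 5) and 0.12 (n = 63).

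The first question was whether the family as a whole differed after periplocymarin. Of 77 members tested, MRPL32 rose, MRPL24 fell and 75 did not pass. Among all 12374 genes tested 3.49% rose and 3.29% fell (6.78% either way), and the member counts of 1 and 1 are not above these background shares. At an unadjusted p under 0.05, 10 members were fitted upward and 4 downward, against 15.8% and 12.5% of all genes tested. The median fitted log2 fold was 0.10 over the members and 0.06 over all genes tested, with 45 members fitted up and 32 down. The median of the members was negative under 3 other scalings or tests: -0.23 with quantile normalization, -0.17 with library totals alone and -0.04 with limma-voom, where the medians of all genes were 0.02, -0.16 and -0.06. With library totals alone the median of all genes and that of the members moved down together, so that the family stayed close to the rest. With quantile normalization only that of the members turned negative, so how close the family lies to the rest depends on the scaling. That scaling gave 371 genes that rose and 1188 that fell, with 1 and 4 among the members.

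**Figure D1:**
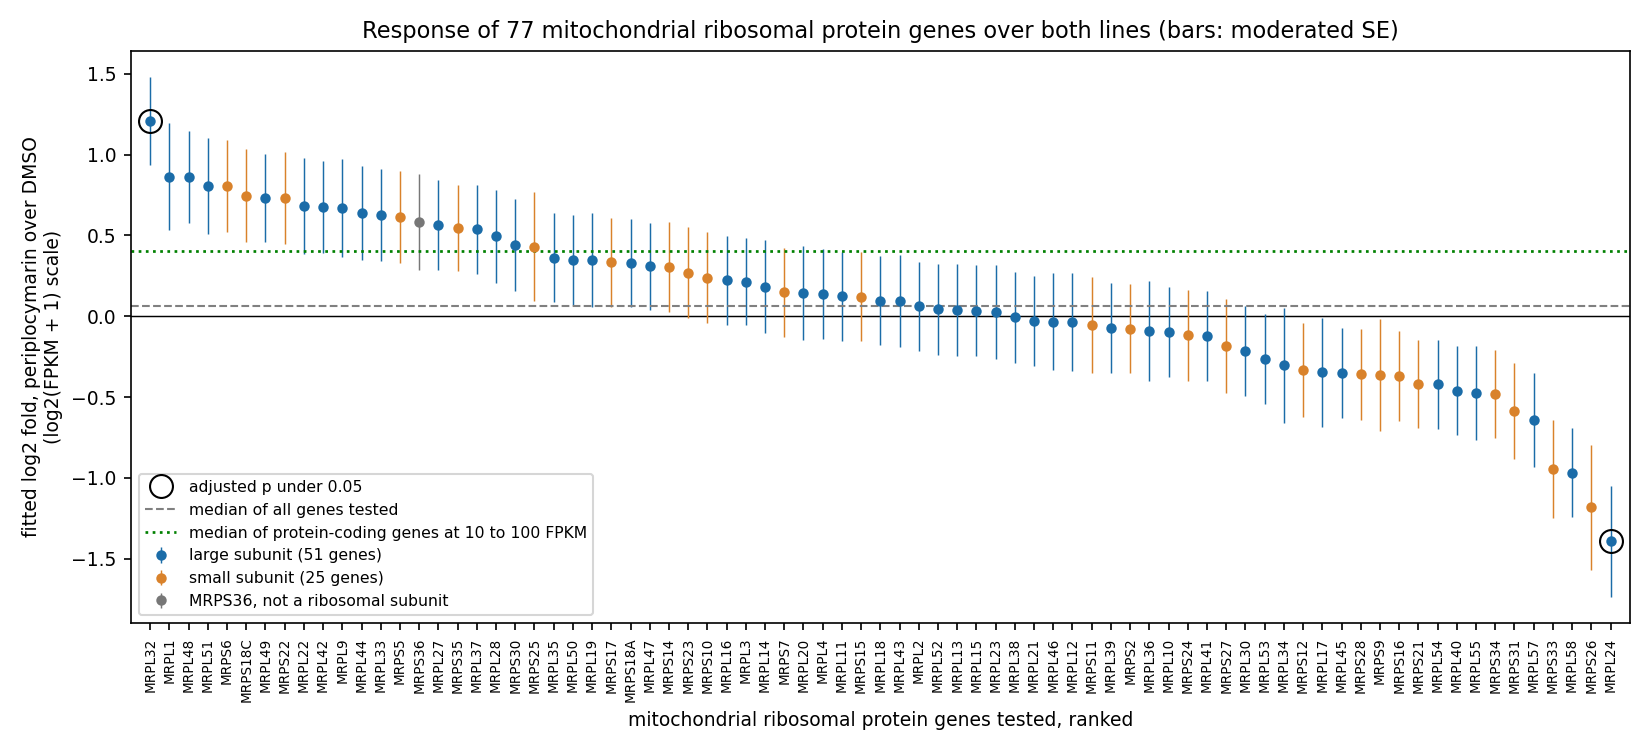
Fitted log2 fold of the 77 tested members, ranked, with the moderated SE as bars and colours for the subunit. MRPL32 at the left end (1.21) and MRPL24 at the right end (-1.39) are ringed, and the lines mark the median of all genes tested (0.06) and of protein-coding genes at 10 to 100 FPKM (0.40).

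Set beside genes of similar abundance, the members had lower fitted folds from 10 FPKM upward, a description without a test. Of the 77, 62 had a mean of 10 to 100 FPKM over the 4 libraries, and their median fitted fold was 0.11, with 37 up and 25 down. Protein-coding genes in the same range had a median of 0.40, with 3009 of 3961 fitted up. At 10 to 30 FPKM the medians were 0.04 for 42 members and 0.35 for 2925 protein-coding genes. At 30 FPKM and above they were 0.20 for 20 members and 0.52 for 1298 genes. Below 10 FPKM the order was the other way, with 0.03 for 15 members and -0.11 for 6683 genes. Across the 77 members the fitted fold was almost unrelated to mean level (Spearman's rho 0.07), whereas across 10906 protein-coding genes rho was 0.46. These are descriptions across genes, which share the same 4 libraries.

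In summed level the family took nearly the same share of all FPKM in both HGC27 libraries, 0.736% after periplocymarin and 0.733% in DMSO. In MKN45 the shares were 0.672% and 0.547%. The 13 mRNAs that the mitochondrial ribosome translates took 10.5% of all FPKM in treated HGC27 against 20.9% in DMSO HGC27, and 20.8% in treated MKN45 against 34.5% in DMSO MKN45. Because the templates take so much of the total, their lower share raises all others. With the 13 left out of the total, the family took 0.823% in treated HGC27 against 0.927% in DMSO HGC27, and 0.849% in treated MKN45 against 0.834% in DMSO MKN45. Of recovered reads it took 0.501% in treated HGC27 against 0.544% in DMSO HGC27, and 0.460% in treated MKN45 against 0.447% in DMSO MKN45. The order of treated and DMSO HGC27 thus depends on the denominator. Of the templates 5 fell and none rose (3.29% and 3.49% of all genes tested), with a median fitted fold of -0.76. Of the 13, 12 were lower in both lines. Those that fell were MT-ND3, which fell by 1.77, MT-CO3 (-1.53), MT-CO2 (-1.11), MT-ND4L (-1.04) and MT-CO1 (-0.94), subunits of complex I or of cytochrome c oxidase. MT-ND3 had 671 FPKM in treated HGC27 against 2582 FPKM in DMSO HGC27, and 1922 FPKM in treated MKN45 against 5784 FPKM in DMSO MKN45. Of these 5 calls only that of MT-CO3 held with quantile normalization, which turned MT-CO1 to 0.10 and MT-CO2 to 0.18 and gave MT-ND3 -1.23 (limma adjusted p = 0.053) and MT-ND4L -0.46 (limma adjusted p = 0.179). Quantile normalization gives equal ranks equal values, which limits what it can show for genes this abundant. A pseudocount of 0.1 ended the calls of MT-ND4L (limma adjusted p = 0.054) and MT-CO1 (limma adjusted p = 0.079). All 5 calls held with library totals alone, with limma-voom on recovered reads and with a floor of 10 FPKM. MT-ND6, the one template on the light strand, was fitted at 0.71 and did not pass.

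The member that rose, MRPL32, counterpart of bacterial L32, is a large-subunit protein whose maturation by the m-AAA protease is a known control point of mitochondrial ribosome assembly in yeast and mouse. It stood at 62.8 FPKM in treated HGC27 against 26.3 FPKM in DMSO HGC27, and at 47.4 FPKM in treated MKN45 against 20.2 FPKM in DMSO MKN45. Both treated libraries lay above both DMSO libraries. The fitted fold was 1.21 ± 0.27 (limma adjusted p = 0.036), and the 2 lines gave nearly the same difference, 1.23 in HGC27 and 1.19 in MKN45. Clopper-Pearson 95% intervals of the log2 read ratio, which cover counting error only, ran from 1.19 to 1.32 in HGC27 and from 1.16 to 1.31 in MKN45. The call was lost with quantile normalization (0.76, adjusted p = 0.108).

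MRPL32 lies on chromosome 7 from 42932200 to 42948958, plus strand, in GRCh38 with the GENCODE 29 annotation. Its 5′ end overlaps that of PSMA2, a proteasome subunit gene on the opposite strand. PSMA2 was at 38.1 FPKM in treated HGC27 against 18.9 FPKM in DMSO HGC27, and at 31.7 FPKM in treated MKN45 against 19.3 FPKM in DMSO MKN45, and did not pass the test (fitted fold 0.83). A second protein-coding model on that strand, ENSG00000256646, starts 26 bases from MRPL32 and covers the PSMA2 end of the locus. It had 0.60 FPKM in treated HGC27 against 0.95 FPKM in DMSO HGC27, and 0.86 FPKM in treated MKN45 against 14.9 FPKM in DMSO MKN45, and did not pass (fitted fold -1.69). Since the strand setting is not given in the sources used here, reads where models overlap cannot be assigned to one gene.

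MRPL24, which fell, is the counterpart of bacterial L24, a protein that binds early in assembly of the large subunit in bacteria. It had 7.46 FPKM in treated HGC27 against 33.6 FPKM in DMSO HGC27, and 20.3 FPKM in treated MKN45 against 34.9 FPKM in DMSO MKN45. The DMSO libraries of the 2 lines were close to each other, and both treated libraries lay below them. The fitted fold was -1.39 ± 0.34 (limma adjusted p = 0.045). The lines differed in size, -2.03 in HGC27 and -0.75 in MKN45, a difference that 4 libraries cannot test. MRPL24 spans 156737303 to 156741590 on chromosome 1, minus strand, and overlaps no other gene model. The calls of MRPL32 and MRPL24 were both lost without a low-value filter (adjusted p = 0.346) and without the line block (adjusted p = 0.830), settings under which no gene passed.

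**Figure D2:**
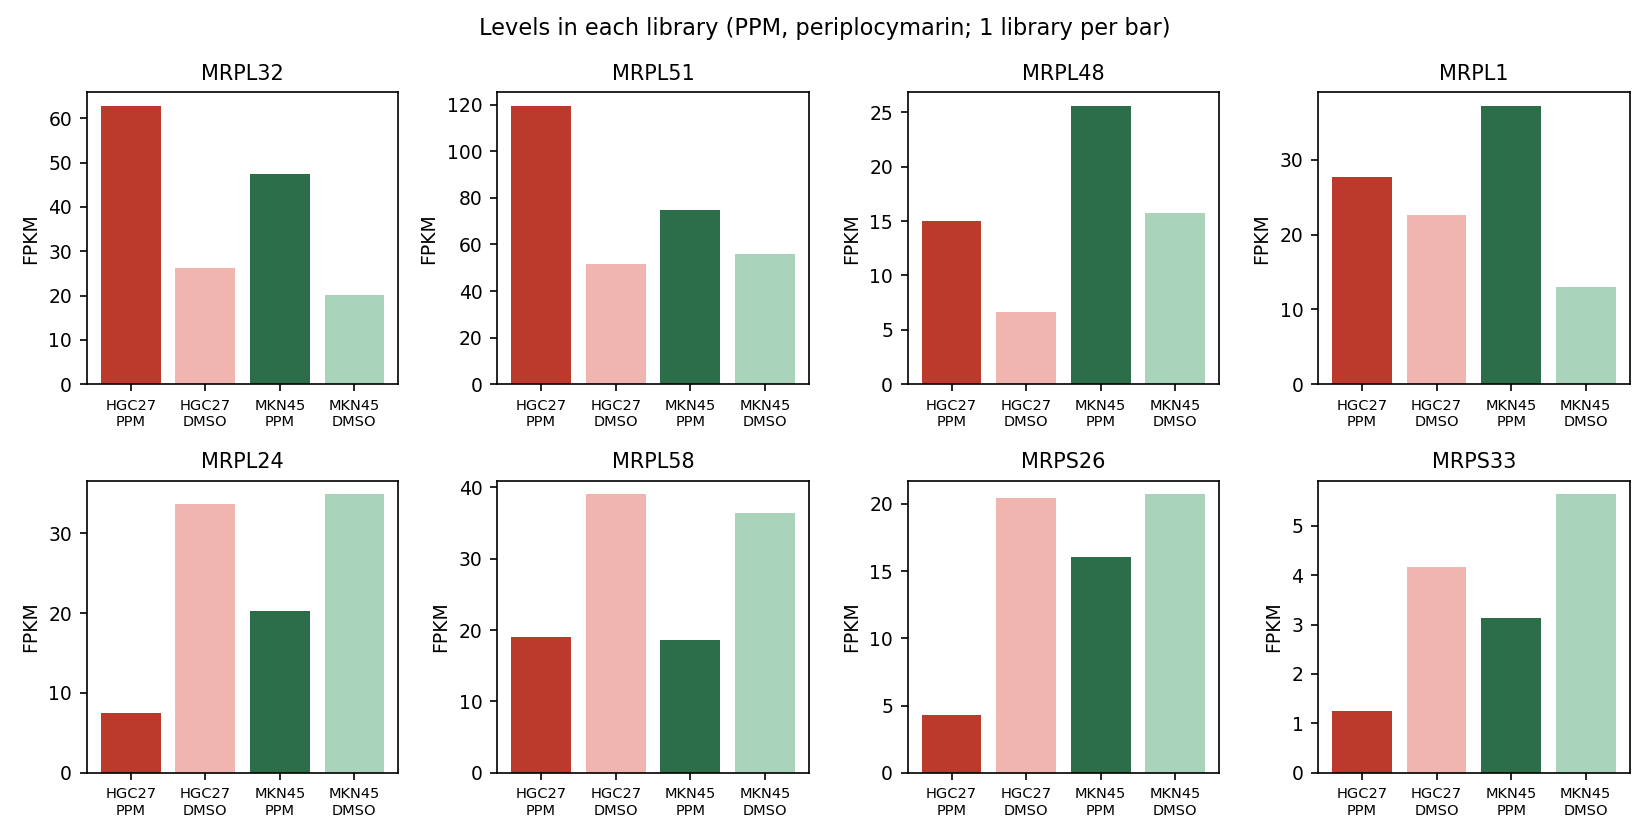
FPKM of 8 members in each of the 4 libraries, 1 bar per library, periplocymarin left of DMSO within a line. MRPL32 is higher after periplocymarin in both lines, and MRPL24, MRPL58, MRPS26 and MRPS33 are lower in both.

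Short of the threshold, 3 more members were lower in both lines by fitted folds near -1. MRPL58, a large-subunit protein that also acts as a peptidyl-tRNA hydrolase and frees stalled ribosomes, had 19.0 FPKM in treated HGC27 against 39.0 FPKM in DMSO HGC27, and 18.6 FPKM in treated MKN45 against 36.4 FPKM in DMSO MKN45. Its fitted fold of -0.97 ± 0.27 missed the threshold (limma adjusted p = 0.062) and passed with quantile normalization, library totals alone, a floor of 10 FPKM or a pseudocount of 0.1. MRPS26, a small-subunit protein without a bacterial counterpart, had 4.30 FPKM in treated HGC27 against 20.4 FPKM in DMSO HGC27. In MKN45 it had 16.0 FPKM after periplocymarin and 20.7 FPKM in DMSO, so the lower level was mainly in HGC27 (limma adjusted p = 0.086). MRPS26 passed with library totals alone (limma adjusted p = 0.014) and with a floor of 10 FPKM (limma adjusted p = 0.0034). MRPS33, also a small-subunit protein of mitochondria alone, had 1.25 FPKM in treated HGC27 against 4.16 FPKM in DMSO HGC27, and 3.13 FPKM in treated MKN45 against 5.63 FPKM in DMSO MKN45 (limma adjusted p = 0.083), and passed with library totals alone (limma adjusted p = 0.025). MRPL58 lies on chromosome 17 from 75012670 to 75021261, MRPS26 on chromosome 20 from 3045945 to 3048254 and MRPS33 on chromosome 7 from 141002610 to 141015228, and none of the 3 overlaps another gene model.

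The large subunit carries the peptidyl transferase centre and the exit tunnel. Of its 51 members 1 rose and 1 fell (3.49% and 3.29% of all genes tested), the median fitted fold was 0.10, and 32 were fitted up. Its 30 members with a bacterial counterpart had a median of 0.13 (21 up) and its 21 members specific to mitochondria 0.04 (11 up). The small subunit binds and decodes the mRNA. None of its 25 tested members passed limma's test, and the median was -0.05 with 12 up and 13 down. At an unadjusted p under 0.05, 3 were fitted up and 2 down (15.8% and 12.5% of all genes tested). Its 16 members with a bacterial counterpart had a median of 0.03 and its 9 tested members specific to mitochondria -0.19.

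Within HGC27, 4 of 77 measured members were at least 1 higher on the log2(FPKM + 1) scale after periplocymarin (9.72% of all 11821 genes measured there) and 4 at least 1 lower (10.4%). The 4 higher members all belong to the large subunit. MRPL51 had 119 FPKM after periplocymarin and 51.5 FPKM in DMSO, MRPL48 15.0 and 6.68 FPKM, and MRPL9, counterpart of bacterial L9, 62.5 and 28.8 FPKM. MRPL32 was the other. MRPL22, which lines the exit tunnel in bacteria, came next with 16.4 and 7.78 FPKM, a difference of 0.99. The lower members were MRPL24, MRPS26, MRPS33 and MRPL58, followed by MRPL17, at 10.9 FPKM after periplocymarin and 21.6 FPKM in DMSO. MRPL51 overlaps NCAPD2 and MRPL9 overlaps OAZ3, both on the opposite strand, and reads there cannot be told apart. The median difference over the members was 0.13, against 0.11 over all measured genes. With quantile normalization no member was higher by that much and 11 were lower (median -0.30), and with library totals alone 0 and 7 (median -0.20). Those counts stand without the share of all genes under the same scaling, so they are not read as a shift of the family.

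In MKN45, 2 of 77 members were at least 1 higher (8.21% of all 11895 genes measured there) and 2 at least 1 lower (8.94%). MRPL1, counterpart of the bacterial L1 protein of the mobile stalk, had the largest difference, 1.44, with 37.2 FPKM after periplocymarin and 13.0 FPKM in DMSO. MRPL32 was the second. MRPS25 followed with 5.13 and 2.14 FPKM, a difference of 0.96, then MRPS18C with 7.70 and 3.51 FPKM (0.95) and MRPS6 with 6.61 and 3.19 FPKM (0.86). MRPS9 was lowest, at 19.4 FPKM after periplocymarin and 40.3 FPKM in DMSO (-1.02), and MRPL34 next, at 9.22 and 19.5 FPKM. MRPL55 was at 2.49 and 4.65 FPKM. The median was 0.22 over the members and 0.07 over all measured genes. Quantile normalization gave 2 higher and 4 lower (median -0.10), and library totals alone 1 higher and 3 lower (median 0.01). These counts too stand without the share of all genes under the same scaling. MRPS9, MRPL34, MRPL1, MRPS25 and MRPS18C each overlap a gene model on the opposite strand, and MRPS6 shares its locus with SLC5A3, so reads in those overlaps cannot be told apart.

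Of the 77 members 33 were higher in both lines, 20 lower in both and 24 had opposite signs in the lines. Among all 12374 genes tested 4678 were higher in both, 3889 lower in both and 3807 had opposite signs. The differences of the 2 lines had a Pearson's r of 0.56 and a Spearman's rho of 0.59 across the 77 members, and 0.55 and 0.57 across 10906 protein-coding genes, a description across genes that share libraries within each line. The members thus tracked between lines about as closely as protein-coding genes in general. In HGC27 MRPL1 had only 27.8 FPKM after periplocymarin and 22.6 FPKM in DMSO, so its response was smaller there (HGC27 minus MKN45, -1.16). MRPL34 and MRPS9 went the other way, with 26.5 and 34.2 FPKM in treated HGC27 against 19.9 and 27.7 FPKM in DMSO HGC27. No difference between the lines was tested, since each line has 1 library per arm.

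**Figure D3:**
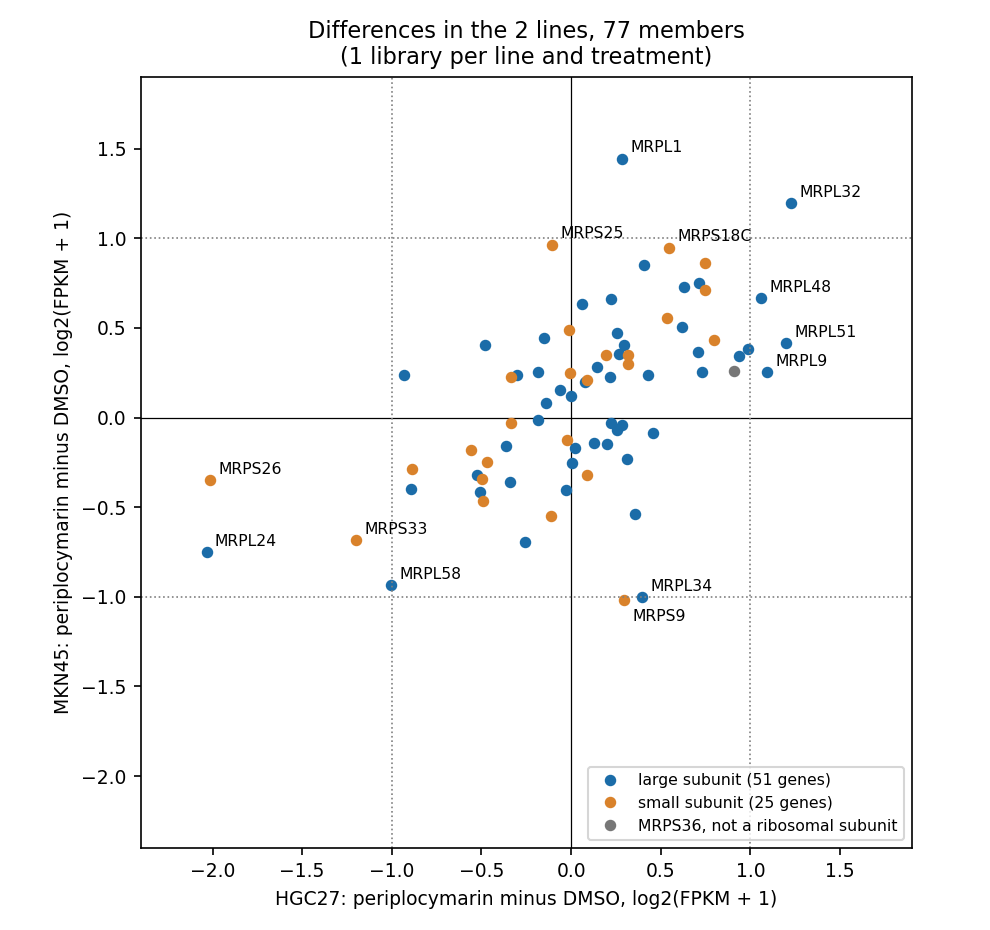
Difference of each of the 77 members in HGC27 (horizontal) and MKN45 (vertical), periplocymarin minus DMSO on the log2(FPKM + 1) scale, with dotted lines at -1 and 1. MRPL32 is beyond 1 in both lines, MRPL1 in MKN45 alone, and MRPL24 and MRPS26 near -2 in HGC27.

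By mean level over the 4 libraries the most abundant members were MRPL12 (95.7 FPKM), MRPS35 (93.6), MRPL51 (75.4), MRPL3 (63.1) and MRPS10 (61.6). The order differed by line: MRPS35 and MRPL12 were the top pair in both MKN45 libraries, whereas in HGC27 MRPL51 was first after periplocymarin and MRPL12 in DMSO. MRPL13 was second in both HGC27 libraries, at 78.1 FPKM after periplocymarin and 62.8 FPKM in DMSO, and had 13.4 and 15.9 FPKM in treated and DMSO MKN45. MRPL12, counterpart of the bacterial stalk protein that recruits translation factors, had 56.3 FPKM in treated HGC27 against 78.8 FPKM in DMSO HGC27, and 141 FPKM in treated MKN45 against 106 FPKM in DMSO MKN45. The lines thus moved opposite ways, and the fitted fold was -0.04. MRPS35, a small-subunit protein specific to mitochondria, had 62.3 FPKM in treated HGC27 against 42.7 FPKM in DMSO HGC27, and 161 FPKM in treated MKN45 against 109 FPKM in DMSO MKN45. The difference between the lines was larger than the difference between treatments. MRPL3 had 47.6 and 43.1 FPKM in treated and DMSO HGC27, and 89.0 and 72.9 FPKM in treated and DMSO MKN45. MRPS10 had 44.5 and 44.8 FPKM in treated and DMSO HGC27, and 92.0 and 65.3 FPKM in treated and DMSO MKN45. Neither MRPL3 (0.21) nor MRPS10 (0.24) passed, and both fitted folds turned negative with quantile normalization and library totals alone.

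At the low end of the tested members stood MRPS33 with a mean of 3.54 FPKM, MRPS25 with 3.96 FPKM and MRPL46 with 4.53 FPKM. FPKM divides by the length of the gene model. The lengths that return whole reads came to 18309 bases for MRPS25, 19524 for MRPS27, 16385 for MRPS22, 16368 for MRPL42 and 13738 for MRPS5, against 1009 for MRPL12. GENCODE 29 gives 5383 bases for MRPS25, 6511 for MRPS27, 5382 for MRPS22 and 6719 for MRPS5, far below the lengths found, and 16393 for MRPL42. With the same reads over its GENCODE length MRPS25 would have a higher FPKM and would not be among the lowest. How many of those reads lie in the shorter model is unknown, so its place there is unknown too. The length found was also above that of GENCODE for MRPL19 (8947 against 4601 bases), MRPL30 (4760 against 2898) and MRPL15 (1773 against 1191), and below it for MRPL40 (1322 against 1965). The place of such members in the order of levels is uncertain. MRPS18B alone was too low to test, with 22 to 34 reads per library. It had 0.53 and 0.41 FPKM in treated and DMSO HGC27 and 0.81 and 0.42 FPKM in treated and DMSO MKN45. Some genes within 100000 bases of it were also low, such as GNL1 (0.26 to 0.49 FPKM) and ATAT1 (0.10 to 0.14 FPKM). ABCF1, DHX16 and MDC1 there had 1.11 to 3.22 FPKM and TUBB 10.8 to 25.5 FPKM. Why MRPS18B was low was not tested. A further 88 models carry names from the family without meeting the rule, pseudogenes and antisense models among them, and 31 were above 0. Together they held 0.583% to 1.15% as many reads as the members in the 4 libraries. How the counting divided reads between a member and such a copy is unknown, which leaves single members with copies uncertain.

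In DMSO the 2 lines gave a similar order of member levels (Pearson's r of log2 levels 0.84, Spearman's rho 0.80, across 77 members). Set against DMSO MKN45, 7 members were at least 1 higher in DMSO HGC27 (14.3% of all 13031 genes measured) and 3 at least 1 lower (17.4%). MRPL13 differed most, with 62.8 FPKM in HGC27 and 15.9 FPKM in MKN45, followed by MRPL39 with 24.4 and 8.10 FPKM and MRPL50 with 24.7 and 10.4 FPKM. MRPL36, at 11.7 FPKM in HGC27 and 34.5 FPKM in MKN45, MRPS35 and MRPL48 were lower in HGC27. With 1 library each, these gaps between lines have no replicate check. MRPL13 overlaps MTBP on the opposite strand.

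Several members share a start region with another gene on the opposite strand. Start sites within 1000 bases were found for 24 tested members with a tested protein-coding partner that has a gene name, 23 pairs in all, which leaves out ENSG00000256646 beside MRPL32. Of these pairs 15 had the same fitted sign, and none of these partners passed the test. Some pairs overlap at their 5′ ends, among them MRPL51 with NCAPD2 and MRPS7 with GGA3. Reads in those overlaps cannot be told apart, which limits the count of like signs. MRPL46 and MRPS11, the one pair made of 2 members, have starts 34 bases apart on chromosome 15. MRPL46 differed by -0.30 in HGC27 and by 0.24 in MKN45, and MRPS11 by -0.34 and 0.23. MRPL46 had 3.71 FPKM in treated HGC27 against 4.82 FPKM in DMSO HGC27, and 5.27 FPKM in treated MKN45 against 4.32 FPKM in DMSO MKN45. MRPS11 had 4.25 FPKM in treated HGC27 against 5.62 FPKM in DMSO HGC27, and 7.74 FPKM in treated MKN45 against 6.47 FPKM in DMSO MKN45. An unnamed gene model overlaps both genes, and how reads were divided among the 3 models is unknown. Other pairs had opposite signs, among them MRPL27, with a fitted fold of 0.56, and its partner EME1, a DNA endonuclease subunit, with -1.03, neither past the threshold.

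Across the members the fitted fold was lower where the GC content of the longest coding transcript was higher (Spearman's rho -0.38, n = 77). The same relation was weaker over 10867 protein-coding genes (rho -0.22), and both are descriptions across genes measured in the same libraries. The 26 members of lowest GC, 35.0% to 45.6%, had a median of 0.35 with 20 fitted up. The 25 members between 46.4% and 52.8% had a median of 0.04, and the 26 members of highest GC, 53.0% to 71.9%, a median of -0.03 with 11 up. Protein-coding genes in the same GC ranges had medians of 0.24, 0.12 and -0.09. Members with a longer gene on the chromosome also had higher folds (rho 0.37, against 0.08 over protein-coding genes). The part of GC content or gene length in any member's value was not tested.

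**Figure D4:**
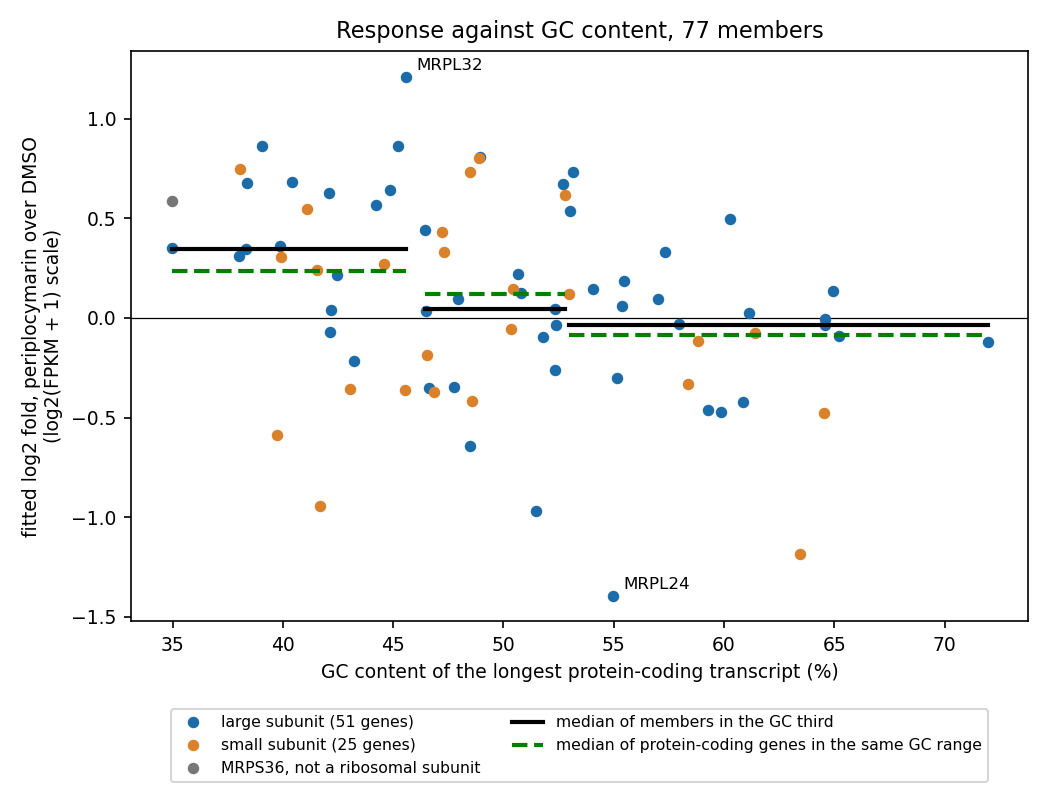
Fitted log2 fold of the 77 members against the GC content of their longest protein-coding transcript. Solid lines give the median of the members in each of 3 GC classes (0.35, 0.04 and -0.03) and dashed lines the median of protein-coding genes in the same range (0.24, 0.12 and -0.09).

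Other genes of mitochondrial translation were read from lists of known components. Over all genes tested 3.49% rose and 3.29% fell, and calls in these short lists are read as single genes. Of 5 further subunits of the mitochondrial ribosome that carry other names, PTCD3, an RNA-binding small-subunit protein, rose by 1.51 ± 0.27 (limma adjusted p = 0.024) and none fell. PTCD3 had 47.1 FPKM in treated HGC27 against 16.3 FPKM in DMSO HGC27, and 52.6 FPKM in treated MKN45 against 17.3 FPKM in DMSO MKN45. GADD45GIP1, a large-subunit protein, was at 69.8 and 26.5 FPKM in treated and DMSO HGC27 and at 24.7 and 14.7 FPKM in treated and DMSO MKN45, and did not pass (1.04, limma adjusted p = 0.061). The median over the 5 was 0.31.

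Of 28 assembly factors none rose and 2 fell (3.49% and 3.29% of all genes tested), with a median of 0.05. MRM1, which methylates the large ribosomal RNA, fell by 1.43 ± 0.29 on the log2 scale (limma adjusted p = 0.029), to 0.69 FPKM in treated HGC27 against 3.83 FPKM in DMSO HGC27 and to 2.65 FPKM in treated MKN45 against 8.34 FPKM in DMSO MKN45. DDX28, an RNA helicase of large-subunit assembly, fell by 1.16 ± 0.29 (limma adjusted p = 0.045). It had 2.42 FPKM in treated HGC27 against 6.69 FPKM in DMSO HGC27, and 3.24 FPKM in treated MKN45 against 8.47 FPKM in DMSO MKN45. Both lines gave like differences for DDX28, -1.17 in HGC27 and -1.16 in MKN45, and with limma-voom the fitted fold was larger, -1.56, while the call was lost (adjusted p = 0.061).

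Among 16 translation factors 1 rose and none fell (3.49% and 3.29% of all genes tested). It was GFM1, the elongation factor that moves the ribosome along the mRNA, up by 1.34 ± 0.28 (limma adjusted p = 0.030). GFM1 had 16.9 FPKM in treated HGC27 against 6.47 FPKM in DMSO HGC27, and 27.0 FPKM in treated MKN45 against 9.54 FPKM in DMSO MKN45. The list's median was 0.22. Of 12 genes of mitochondrial DNA maintenance and transcription 1 rose and none fell (3.49% and 3.29% of all genes tested). It was TFAM, which packages mitochondrial DNA and helps start its transcription, up by 1.09 ± 0.27 (limma adjusted p = 0.047). Of the 12, 10 were fitted up and the median was 0.68. TFAM had 29.7 FPKM in treated HGC27 against 13.7 FPKM in DMSO HGC27, and 49.4 FPKM in treated MKN45 against 22.2 FPKM in DMSO MKN45. The TFAM call was lost with quantile normalization (0.70, adjusted p = 0.137) and library totals alone (0.81, adjusted p = 0.063).

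Of 9 regulators of mitochondrial gene sets 8 were tested and none passed limma's test. At an unadjusted p under 0.05, 3 were fitted up and none down (15.8% and 12.5% of all genes tested). Those 3 were NRF1 (0.71), PPARGC1B (0.67) and PPRC1 (1.03). GABPA (0.28) and YY1 (0.61), whose motifs were searched above along with that of NRF1, were also fitted up in both lines. MYC (-0.61, lower in HGC27 alone) and ESRRA (-0.22) were fitted down. Of 12 mitochondrial chaperones and proteases none rose and 1 fell (3.49% and 3.29% of all genes tested). It was ATF5, a transcription factor of the mitochondrial stress response that stands on that list, which fell by 1.62 ± 0.29 (limma adjusted p = 0.024). ATF5 had 10.1 FPKM in treated HGC27 against 40.5 FPKM in DMSO HGC27, and 6.87 FPKM in treated MKN45 against 19.0 FPKM in DMSO MKN45. The medians were 0.62 over the regulators and 0.48 over the chaperones and proteases. AFG3L2, the m-AAA protease subunit that acts on MRPL32, was at 25.6 and 18.8 FPKM in treated and DMSO HGC27 and at 31.0 and 17.4 FPKM in treated and DMSO MKN45, with a fitted fold of 0.61 that did not pass.

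**Figure D5:**
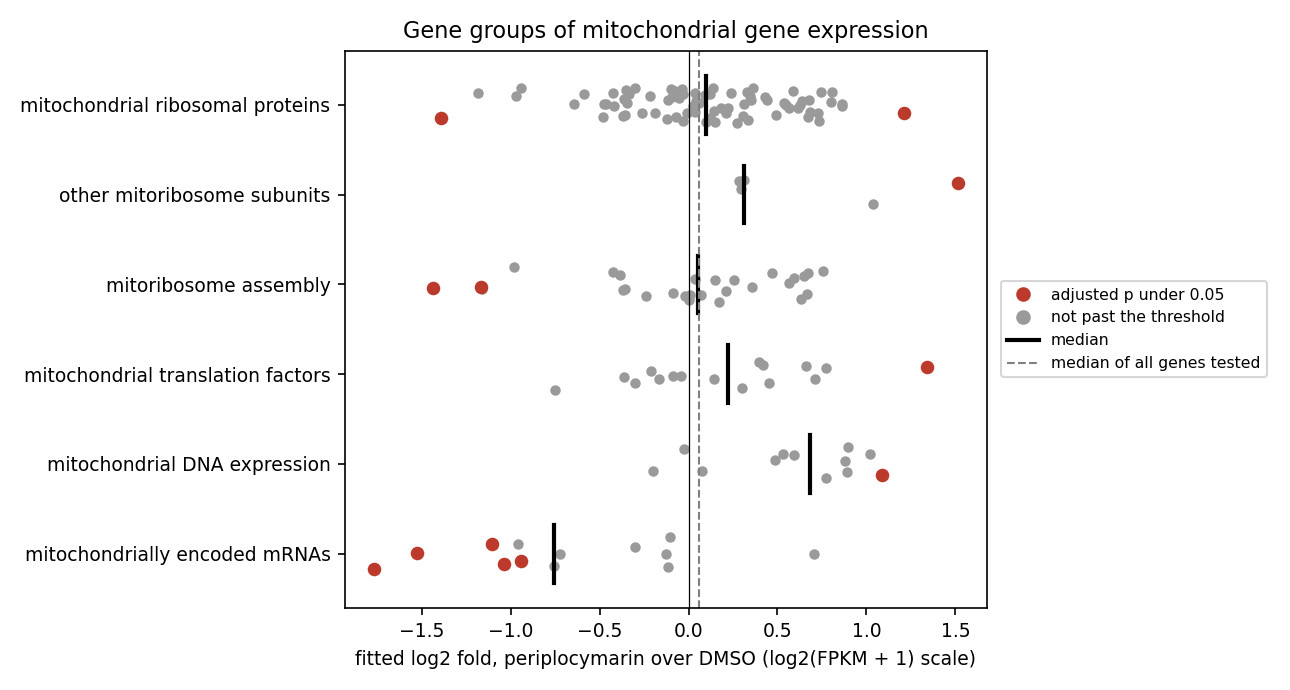
Fitted log2 folds of 6 gene groups, 1 point per tested gene, with the median as a bar and genes past the threshold in red. Mitochondrial ribosomal proteins centre near 0 (median 0.10), genes of mitochondrial DNA expression lie higher (0.68) and mitochondrially encoded mRNAs lower (-0.76).

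Proteins of the cytosolic ribosome gave a comparison at higher abundance. Of 79 such genes 77 were tested, none passed limma's test, and the median was 0.08. At an unadjusted p under 0.05, 4 were fitted up and 1 down (15.8% and 12.5% of all genes tested). Their medians were 0.40 in HGC27 and -0.15 in MKN45, whereas those of the mitochondrial ribosomal proteins were 0.13 and 0.22. The spread of fitted folds was wider for the mitochondrial ribosomal proteins (SD 0.50) than for the cytosolic ones (SD 0.35), and was 0.66 over all genes tested.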

How the data were processed

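Poly(A)-captured messenger RNA of 4 libraries, 1 per line and treatment, was analysed from 1 table of 62710 Ensembl genes, grouped by the titles the labels give each sample. Per the submitters' processing notes, the tools were fastp 2.0 and HISAT2 2.1.0 and the build was hg38. Counter, annotation and strand setting were not given in the sources used here. The unit is not named in the table, whose values have the steps of FPKM; the FPKM the authors deposited appear, by inference, to include a composition factor. At a tolerance of 0.0001 reads, 15204 of 30457 genes gave whole reads at their GENCODE 29 length (49.9%). With lengths found by search, all 20299 of 20299 genes present in at least 3 libraries did. The factors (0.949, 1.21, 0.865 and 1.01 for treated and DMSO HGC27 and treated and DMSO MKN45) lay within 0.0395% of trimmed-mean factors from the recovered reads.

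Limma-trend was the test planned for a table of FPKM, with limma-voom on recovered reads as an alternative. The model (limma 3.58.1, R 4.3.3) used log2(FPKM + 1), a pseudocount of 1, and a block for cell line, because the line links both libraries of a pair. Its 12374 genes had mean values of 1 FPKM or more and 10 recovered reads or more. The script was tested on simulated data. Inside a line, genes with a mean of 1 FPKM or more were compared without a test. Reads served for depth and for Clopper-Pearson 95% intervals, which cover counting error only.

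Members and gene lists were chosen with earlier results of these data known, and nothing was adjusted over a list alone. Classes of subunit follow the systematic ribosomal protein names. Genes named are the members and list genes called and, of the members, the 5 highest and lowest per line, in level the 5 highest and 3 lowest, and the 5 and 3 at each end of the line differences in response and in DMSO. Every other gene named, such as EME1, AFG3L2 or MRPL27, was chosen after its values were seen. Symbols matched 62706 of 62710 identifiers. Promoters came from RefSeq, GRCh38.p14. The alternatives changed the scaling (quantile, or library totals alone), the low-value filter (none, or 10 FPKM), the pseudocount (0.1), the test (limma-voom on recovered reads) or the line block (none). A further one, added after seeing the data, kept genes above 0 in at least 3 libraries.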

Additional observations from a re-analysis of the deposited data

Results flagged for a closer look

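For 12 members the 2 lines moved opposite ways, each by more than counting error in its own line. The share of all genes meeting this rule was not counted, while 3807 of 12374 genes tested had opposite signs in the lines. The difference between the lines was not tested, since each has 1 library per arm, and values are the HGC27 response minus the MKN45 response on the log2(FPKM + 1) scale. Lower in HGC27 and higher in MKN45 after periplocymarin were MRPL17 (-1.17), MRPS25 (-1.07), MRPL12 (-0.89), MRPL20 (-0.59), MRPS11 (-0.56), MRPL46 (-0.54) and MRPL15 (-0.44). Higher in HGC27 and lower in MKN45 were MRPL34 (1.40), MRPS9 (1.31), MRPL36 (0.89), MRPL13 (0.54) and MRPL38 (0.27). MRPL46 and MRPS11, which share a start region, are both among the 12. The signs are those of the main scaling. Quantile normalization and library totals alone each turned the HGC27 median of the members negative, so small differences can change sign.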

How the results depend on the processing

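With 1 library per line and treatment, leaving out a library leaves no residual degrees of freedom and was not run; the values of each line stand in its place. Quantile normalization called 189 genes that rose and 364 that fell, 0 and 2 of them members, and turned the members' median fitted fold to -0.23, the HGC27 median to -0.30 (0 members at least 2-fold higher, 11 lower) and the MKN45 median to -0.10 (4 lower). It also turned MRPL3 to -0.26, MRPS10 to -0.23, MRPL46 to 0.026, MRPL13 to -0.39, MT-CO1 to 0.10 and MT-CO2 to 0.18. Library totals alone called 371 and 1188 genes, 1 and 4 of them members, with medians of -0.17 over both lines and -0.20 in HGC27 (0 higher, 7 lower) and 1 member higher in MKN45. They turned MRPL3 to -0.068, MRPS10 to -0.042 and MRPL13 to -0.24. Limma-voom called 481 and 708 genes, with a member median of -0.036 and MRPL13 at -0.061. A floor of 10 FPKM called 1049 and 199 of 4454 genes, 4 and 3 of them members. A pseudocount of 0.1 called 755 and 734 genes, 1 and 2 of them members, and put 5 members higher in MKN45. With no low-value filter limma called 0 genes either way (4306 at an unadjusted p under 0.05), so 0 members. Without the line block it also called 0 (695 unadjusted) and 0 members; MRPL32 and MRPL24 then had adjusted p = 0.830, so every call rests on the pairing by line. Genes above 0 in at least 3 libraries gave 621 and 578 calls, 1 and 1 of them members. The cause of these shifts was not tested. Counts of members within a line under these settings stand without the share of all genes, so they are not read as a shift of the family. MRPS18B had only 22 to 34 reads per library, for a reason that was not tested, while the other members had at least 103 reads in every library.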
